A study of Sus scrofa with 10 samples.

Results

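The 33 genes described here encode the enzymes of glycolysis and gluconeogenesis, the carriers that bring glucose into cells and the carriers that move lactate across the membrane. They were picked by gene name, and each of the 33 names had a row among the 27376 rows of a count table of pig (Sus scrofa) genes. The table held 10 libraries in 3 groups. The 4 GF libraries came from tissue that grew from germ cells and fibroblasts injected together, and the 4 FO libraries from tissue that grew from fibroblasts alone. Both kinds of cell mixture were placed, in a concentrated Matrigel, under the dorsal skin of a mouse that the labels call SKID, and the tissue was taken 6 months later. The 2 control libraries were titled as control testis with the code 5D, which is not explained, so their age is unknown. The stated question is whether germ cells in the mixture affect how testis tissue is rebuilt. The labels call the injected cells primary and name the fibroblasts as testicular, and they say nothing on strain, pooling of animals or whether replicates came from separate grafts, so the p-values measure only the spread between these libraries, which may be technical.

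Glycolysis splits glucose into pyruvate, and lactate dehydrogenase turns pyruvate into lactate and back. In the testis, Sertoli cells are known to take up glucose and to release lactate, which meiotic and later germ cells take in and burn. Several steps of the pathway are served by isoenzymes from separate genes, and male germ cells switch to forms of their own, such as PGK2, LDHC and GAPDHS, as they mature.

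Total counts were 2915534 to 4917325 in GF, 4033509 to 4887878 in FO and 5844944 to 7013911 in control libraries, and GF 3 and GF 4 had the lowest totals. Values are counts per 1000000 (CPM) after TMM scaling, and 3 counts, the floor for a gene at 0, stood for 0.453 to 1.04 CPM in a single library. Intervals and floors cover counting error only. Reads were counted at 3′ ends, so differences were tested between libraries and not between genes. Shares of counts within a family of genes are given to set libraries side by side, and they are shares of counts only. Of 12 germ cell markers, such as DDX4, all were detected in each GF library and summed to 590.0 to 2737 CPM, against 7.42 to 15.0 CPM in FO and 146 to 157 CPM in control libraries. Of 11 Sertoli cell markers, 9 or 10 were detected in each library, and they summed to 14845 to 45589 CPM in GF, 4818 to 8739 CPM in FO and 4854 to 5418 CPM in control libraries, most of it from CLU. Both kinds of graft had low sums of erythroid markers, 5.66 to 35.0 CPM, against 3212 to 4105 CPM in control libraries. Leydig cell markers summed to 1725 to 3357 CPM in GF, to 518 to 3822 CPM in FO and to 14244 to 16838 CPM in control libraries. In bulk tissue, fewer cells of a type and less RNA per cell cannot be told apart. Counts are on pig genes, and the share of reads from the mouse host was not tested.

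With germ cells in the graft, PFKFB4, ALDOA, PFKL, ENO1 and TPI1 were higher in GF than in FO, and ALDOC was lower. Of the 33 genes, 25 had enough counts to be tested between GF and FO, and 5 rose and 1 fell at a Benjamini-Hochberg adjusted p under 0.05 (edgeR's quasi-likelihood test). These 6 were 24% of the 25, against 30.5% of the 13782 genes tested, of which 17.6% rose and 13.0% fell, so the share of calls was near or below that of all genes. With total counts in place of TMM scaling the same 6 were called, while calls over all genes were 69.1% higher ones, compared with 57.5% under TMM. The median log2 fold change was 0.36 for the 25 and -0.02 for all genes tested. GF and FO did not overlap for 7 of the 25 (4 with GF above and 3 with GF below), against 36.0% of all genes tested (17.8% above and 18.2% below). Of the Sertoli cell markers tested, 4 of 9 were higher and 1 lower in GF than in FO, and 3 of 10 were higher and 2 lower in GF than in control. Their sums, mostly CLU, therefore do not stand for all of them. Markers of other cells also differed between GF and FO. All 9 fibroblast markers were above 0 in every library, and they summed to 1695 to 2815 CPM in GF, 4105 to 6123 CPM in FO and 4491 to 4557 CPM in control libraries, with 6 of 9 lower and 1 higher in GF than in FO. The 8 markers of smooth muscle and peritubular myoid cells were also above 0 throughout and summed to 1168 to 1559 CPM in GF, 787 to 870.2 CPM in FO and 623 to 722 CPM in control libraries, with 4 of 8 higher and none lower in GF than in FO. Endothelial markers summed to 36.8 to 70.3 CPM in GF, 109 to 211 CPM in FO and 255 and 259.5 CPM in control libraries. The part of these cells, and of the Sertoli and germ cells given above, in the differences between GF and FO was not tested.

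Against control testis, 29 of the 33 were tested for each kind of graft. In GF, 5 rose and 6 fell, which is 37.9%, against 25.8% of the 15877 genes tested (14.0% higher and 11.8% lower). In GF, 6 lay above control and 12 below it with no overlap, against 47.2% of all genes tested (21.9% above and 25.3% below). In FO, 3 rose and 5 fell, which is 27.6%, against 18.7% of all (8.12% higher and 10.6% lower). In FO, 5 lay above control and 12 below it with no overlap, against 58.7% of all (26.7% above and 32.0% below). The median log2 fold change was -0.48 in GF against control, beside 0.03 for all genes, and -0.31 in FO against control, beside -0.04 for all genes. HK2 and PGAM2, among the genes that rose in both, had 0 and 11 counts over the control group. Both had enough counts for the test only through the grafts. FBP2, which fell in both, had enough only through control. Both comparisons use the same 2 control libraries, so their values are given side by side and their likeness is not read as a result. Leaving out control 2 took the calls in GF to 3 of 11, namely PFKFB4, ALDOC and FBP2, and leaving out control 1 took them to 6.

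**Figure D1:**
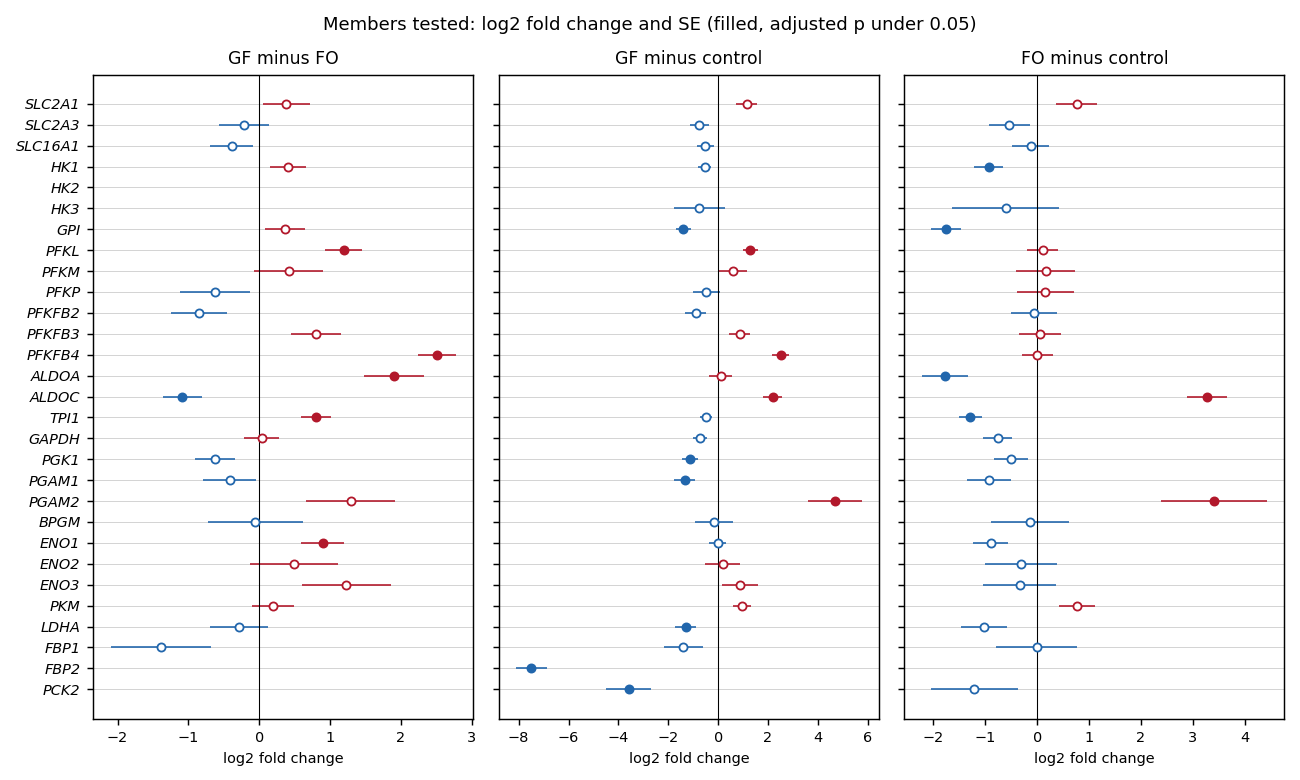
Log2 fold change (points) with its SE (lines) for each gene tested, in GF against FO, GF against control and FO against control, with red points above 0, blue points below 0 and filled points for an adjusted p under 0.05. PFKFB4 stands at 2.51 in GF against FO and against control and at 0.00 in FO against control, and ALDOC has opposite signs in the first panel and the others. HK2, and FBP2 in FO against control, have no point, since a group is at 0 there or the gene was not tested.

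The carriers come first in the pathway, and none of them was called in any comparison of all libraries. SLC2A1 (GLUT1), the widespread glucose carrier, was at 28.9, 32.7, 19.0 and 55.0 CPM in the GF libraries, 31.8, 26.3, 21.4 and 24.6 CPM in FO, and 12.9 and 17.8 CPM in control libraries. All 8 graft libraries were above both control libraries, with a log2 fold change of 1.14 ± 0.41 (SE) in GF against control (adjusted p = 0.0565) and 0.76 ± 0.40 in FO against control (adjusted p = 0.219). Without GF 3 the GF value was 1.31 and called (adjusted p = 0.0169), and with each library left out in turn it ranged over 0.82 to 1.37. SLC2A3 (GLUT3), a carrier with high affinity for glucose, was at 12.4 to 45.9 CPM in GF libraries and 36.2 to 47.9 CPM in FO libraries, both below the 54.6 and 65.1 CPM of control libraries. SLC16A1 (MCT1), which carries lactate and pyruvate, was at 16.2 to 35.4 CPM in GF, 25.4 to 41.5 CPM in FO and 34.8 to 37.6 CPM in control libraries. SLC16A3 (MCT4), the lactate exporter of strongly glycolytic cells, stayed under 5 CPM in every library and was never tested. As a share of the SLC2A1 and SLC2A3 counts together, SLC2A1 made up 48.9 ± 22.5% in GF, 38.7 ± 6.2% in FO (SD, n = 4 each) and 20.3 ± 1.71% in control (n = 2).

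Hexokinase traps glucose in the cell, and nearly all hexokinase counts were HK1. HK1 was at 99.4, 99.1, 185 and 159.7 CPM in the GF libraries, 93.7, 109, 100.3 and 111 CPM in FO, and 189.9 and 205 CPM in control libraries. FO was below control (log2 fold change -0.93 ± 0.27, adjusted p = 0.0296), while GF 3 and GF 4 lay near control and GF 1 and GF 2 near FO. Leaving out any 1 of the 6 libraries of FO and control ended that call. GF was at -0.54 against control (adjusted p = 0.164), and at -0.75 without GF 3 (adjusted p = 0.0402). With each library left out in turn, this GF value ranged over -0.75 to -0.43. HK2, the insulin-responsive form of muscle and fat, had 8, 4, 0 and 12 counts in GF and 5, 12, 9 and 9 counts in FO, and 0 counts in both control libraries. Against 3 counts over the control group, HK2 was at least 6.34-fold higher in GF (adjusted p = 0.0366) and at least 8.37-fold higher in FO (adjusted p = 0.0377). It had enough counts for the test only through the grafts, so these p-values add no support to the counts. Without control 2 and without control 1 the bounds were 3.03 and 3.31 in GF and 4.00 and 4.37 in FO, and the calls ended. The FO call also ended without FO 1, FO 3 or FO 4, and without GF 4, where the GF bound was 3.87, or without FO 2 the gene had too few counts for the test. HK3, a form of blood cells, had 0 to 11 counts in grafts and 10 and 20 counts in control libraries, and was not called.

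GPI, which turns glucose 6-phosphate into fructose 6-phosphate, was lower in both kinds of graft than in control testis. It was at 76.7, 75.6, 104 and 149 CPM in the GF libraries, 62.7, 68.9, 104 and 80.5 CPM in FO, and 258 and 277 CPM in control libraries. Every graft library was below both control libraries, at a log2 fold change of -1.40 ± 0.30 in GF (adjusted p = 0.00453) and -1.76 ± 0.30 in FO (adjusted p = 0.0013). Without control 2 the GF call ended.

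The committed step of glycolysis belongs to phosphofructokinase, and its liver form PFKL was higher in GF than in both other groups. PFKL was at 43.1, 50.4, 57.7 and 75.4 CPM in the GF libraries, 21.7, 24.4, 28.7 and 24.4 CPM in FO, and 21.4 and 24.6 CPM in control libraries. The groups did not overlap, and the log2 fold change was 1.19 ± 0.26 against FO (adjusted p = 0.00513) and 1.29 ± 0.31 against control (adjusted p = 0.00869). The call against control ended without control 1 and without control 2. FO and control overlapped (0.11 ± 0.30, adjusted p = 0.845).

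The other phosphofructokinase genes were not called in any comparison. PFKM, the muscle form, was at 18.0, 20.6, 19.7 and 6.91 CPM in the GF libraries, 25.4, 7.83, 8.81 and 7.42 CPM in FO, and 10.1 and 11.8 CPM in control libraries. PFKP, the platelet form, ranged over 3.21 to 12.4 CPM in GF, 7.40 to 14.2 CPM in FO and 8.90 to 9.52 CPM in control libraries. Of the counts of the 3 genes, PFKL made up 70.7 ± 9.92% in GF, 53.5 ± 11% in FO and 53.3 ± 0.394% in control, and PFKP 8.10 ± 3.92%, 21.8 ± 6.09% and 21.4 ± 0.931% in the same groups (SD, n = 4, 4 and 2).

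PFKFB enzymes make and break fructose 2,6-bisphosphate, the strongest activator of phosphofructokinase. PFKFB4, known as the testis form, had the lowest p of the 25 genes in GF against FO. It was at 81.9, 96.9, 98.7 and 114 CPM in the GF libraries, 14.8, 20.9, 21.2 and 11.9 CPM in FO, and 16.8 and 17.5 CPM in control libraries. Every GF library lay far above all the others, while FO and control shared 1 range. The log2 fold change was 2.51 ± 0.27 in GF against FO (adjusted p = 1.38e-04) and 2.51 ± 0.33 in GF against control (adjusted p = 2.11e-04), and both calls held when each library was left out in turn. In FO against control it was 0.00 ± 0.30.

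PFKFB3, the form in which kinase activity prevails, was at 252, 163, 69.7 and 139 CPM in the GF libraries, 63.0, 112, 108 and 73.9 CPM in FO, and 87.9 and 83.7 CPM in control libraries. GF 3 fell within the range of FO while the other 3 GF libraries were above it, and the log2 fold change of 0.80 ± 0.35 was not called (adjusted p = 0.0996). It was 1.03 and called without GF 3 (adjusted p = 0.0216). With each library left out in turn it ranged over 0.47 to 1.03, at an adjusted p of up to 0.286. PFKFB2, the heart form, was at 4.49 to 7.76 CPM in GF, below the 9.32 to 12 CPM of FO and the 9.23 to 12.8 CPM of control libraries, and was not called (-0.85 ± 0.39 against FO, adjusted p = 0.121). PFKFB1, the form of liver and muscle, had 0 counts in all 10 libraries. PFKFB4 took 24.1, 36.2, 57.1 and 44.2% of the PFKFB2, PFKFB3 and PFKFB4 counts in GF, 12.5 to 16.5% in FO, and 14.8 and 15.4% in control libraries.

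**Figure D2:**
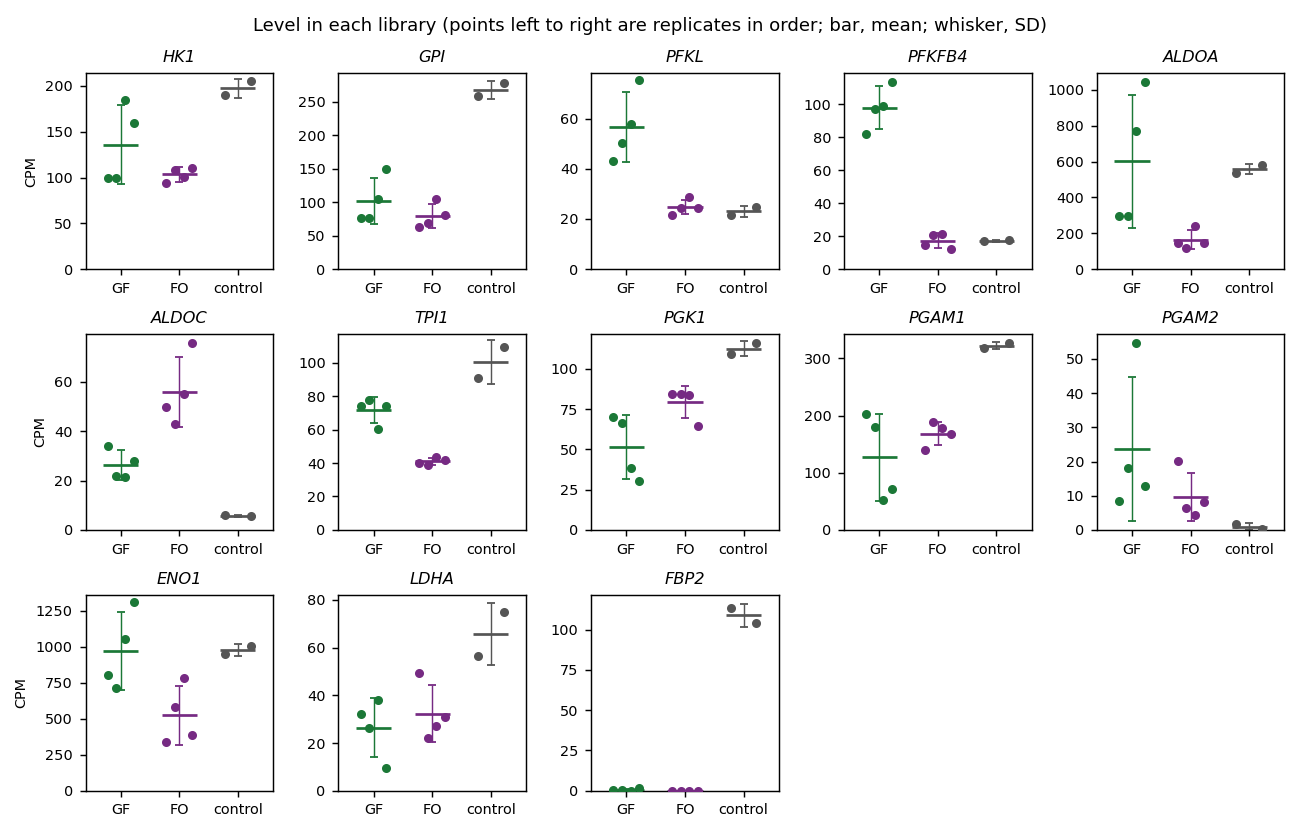
Level in CPM (linear axes from 0) of 13 genes called in at least 1 comparison, with 1 point per library, the mean as a bar and the SD as a whisker, for GF (n = 4), FO (n = 4) and control (n = 2). PFKFB4 and PFKL stand apart in GF, ALDOC is highest in FO and lowest in control, FBP2 lies near 0 in all 8 grafts, and the ALDOA points of GF fall into a low pair (GF 1 and GF 2) and a high pair (GF 3 and GF 4).

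Aldolase splits fructose 1,6-bisphosphate, and its forms ALDOA and ALDOC differed in opposite directions between GF and FO. ALDOA, the widespread and muscle form, was at 295, 297, 769 and 1046 CPM in the GF libraries, 143, 119.6, 239.5 and 146 CPM in FO, and 537 and 579 CPM in control libraries. All GF libraries were above all FO libraries, and control lay between the low and the high pair of GF. ALDOA rose in GF against FO (log2 fold change 1.90 ± 0.42, adjusted p = 0.00583) and fell in FO against control (-1.78 ± 0.45, adjusted p = 0.0137), and in GF against control it was at 0.11 ± 0.46 (adjusted p = 0.887).

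GF 3 and GF 4, with the high ALDOA levels, also had the lowest total counts and the highest Sertoli marker sums (40374 and 45589 CPM, against 14845 and 16781 CPM in GF 1 and GF 2), and the part of these in the result was not tested. With neither of them, ALDOA stayed called in GF against FO at 0.86 (adjusted p = 0.0132) and was at -0.92 in GF against control (adjusted p = 0.0120). Without GF 3 and FO 1 together, the libraries with the highest skeletal muscle sums, ALDOA was at 1.69 against FO (adjusted p = 0.0622). It stayed called against FO when each library was left out alone, and the call in FO against control ended without either control library.

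ALDOC, the brain form, was at 34.1, 21.7, 21.4 and 28.0 CPM in the GF libraries, 49.9, 43.1, 55.2 and 75.9 CPM in FO, and 6.10 and 5.44 CPM in control libraries. The 3 groups did not overlap, with FO highest and control lowest. Of 10 neural and Schwann cell markers, 9 were in the table, and they summed to 203 to 292 CPM in GF, 319 to 374 CPM in FO and 210.2 and 276 CPM in control libraries, so that FO was highest here too while GF and control overlapped. In GF against FO, 1 of 6 of these markers was higher and 2 were lower, in GF against control 3 of 8 were higher and 1 lower, and in FO against control 4 of 8 were higher and none lower. Their part in the ALDOC result was not tested. The log2 fold change was -1.09 ± 0.27 in GF against FO (adjusted p = 0.0109), 2.18 ± 0.37 in GF against control (adjusted p = 0.00105) and 3.27 ± 0.38 in FO against control (adjusted p = 9.16e-05), and all 3 calls held when each library was left out in turn. ALDOC made up 10.4, 6.79, 2.71 and 2.61% of aldolase counts in GF, 25.8, 26.5, 18.7 and 34.2% in FO, and 1.12 and 0.931% in control libraries. RefSeq (Sscrofa11.1) places ALDOA at chr3:18246036-18260167 and ALDOC at chr12:44823376-44827273, so the 2 loci do not overlap. Whether reads were shared between these related genes was not tested.

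**Figure D3:**
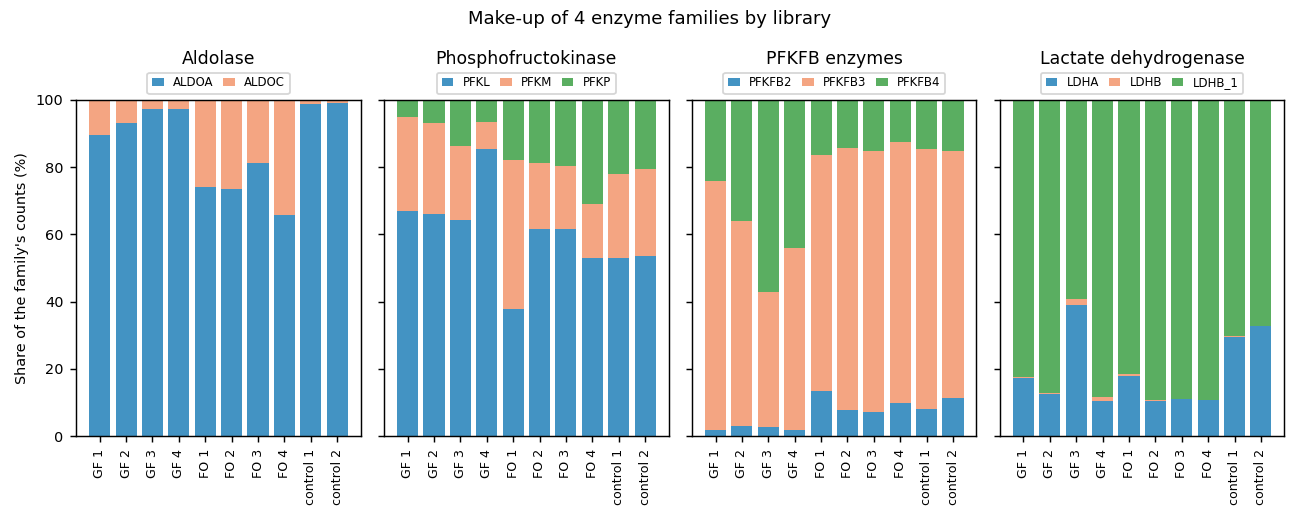
Share of a family's counts (percent, stacked to 100) taken by each gene, in each of the 10 libraries, for aldolase, phosphofructokinase, the PFKFB enzymes and lactate dehydrogenase. ALDOC takes 18.7 to 34.2% in FO and at most 10.4% elsewhere, and PFKFB4 takes 24.1 to 57.1% in GF and at most 16.5% elsewhere.

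TPI1, which interconverts the triose phosphates, was at 74.2, 77.8, 60.1 and 74.0 CPM in the GF libraries, 40.1, 38.7, 43.6 and 42.0 CPM in FO, and 91.0 and 109.5 CPM in control libraries. The groups did not overlap, with FO lowest and control highest. TPI1 rose in GF against FO (0.80 ± 0.21, adjusted p = 0.0132) and fell in FO against control (-1.29 ± 0.23, adjusted p = 0.00177), a call that ended without control 2. In GF against control the difference was not called (-0.49 ± 0.23, adjusted p = 0.136).

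GAPDH, PGK1 and PGAM1 carry the triose on towards pyruvate, and every graft library was below both control libraries for each of them. GAPDH, often used to normalise other genes, was at 690.1, 548, 561 and 940.0 CPM in the GF libraries, 551, 565, 709.6 and 857 CPM in FO, and 992 and 1284 CPM in control libraries. It was not called in any comparison, with an adjusted p of 0.928 in GF against FO, 0.0667 in GF against control (0.0202 without GF 4) and 0.0715 in FO against control. With each library left out in turn, the log2 fold change of GAPDH in GF against control ranged over -0.93 to -0.56. PGK1, phosphoglycerate kinase, was at 70.3, 66.4, 38.3 and 30.4 CPM in the GF libraries, 84.5, 84.2, 83.9 and 64.6 CPM in FO, and 109 and 116 CPM in control libraries. PGK1 fell in GF against control (-1.12 ± 0.32, adjusted p = 0.0197), was at -0.62 ± 0.28 against FO (adjusted p = 0.116), and its lowest libraries were GF 3 and GF 4.

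PGAM1, the widespread phosphoglycerate mutase, was at 202, 180.4, 52.1 and 71.9 CPM in the GF libraries, 140.5, 189, 177 and 167 CPM in FO, and 318 and 327 CPM in control libraries. It fell in GF against control (-1.34 ± 0.42, adjusted p = 0.0311), with GF 3 and GF 4 again lowest, and was at -0.93 ± 0.42 in FO against control (adjusted p = 0.145). The PGK1 and PGAM1 calls ended without control 1 and without control 2, and the PGAM1 call also without GF 4. BPGM, which makes 2,3-bisphosphoglycerate in red cells, was at 14.6, 15.3, 0.690 and 3.46 CPM in GF, 7.84 to 9.86 CPM in FO and 8.74 to 11.0 CPM in control libraries, again lowest in GF 3 and GF 4. GAPDH, PGK1, PGAM1, ENO1, LDHA and LDHB have close copies elsewhere in mammalian genomes, so their counts are uncertain where reads could be shared.

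PGAM2, the mutase of muscle and sperm, was higher in both kinds of graft than in control. It was at 8.57, 18.2, 54.5 and 12.8 CPM in the GF libraries, 20.1, 6.31, 4.40 and 8.05 CPM in FO, and 1.65 and 0.151 CPM in control libraries, which held 10 and 1 counts. GF 3 and FO 1 were the highest of their groups, and all grafts were above control. The log2 fold change was 4.68 ± 1.07 in GF against control (adjusted p = 0.00661) and 3.41 ± 1.03 in FO against control (adjusted p = 0.0337). PGAM2 had enough counts for the test only through the grafts, so its p-values and calls against control add no support to the counts. The GF value was 3.84 without GF 3, 7.01 without control 1 and 3.78 without control 2, where the call ended (adjusted p = 0.0925), and the FO value was 2.79 without FO 1, 5.74 without control 1 and 2.51 without control 2, with the call ended each time and also without FO 4. Against FO, GF was at 1.29 ± 0.62 (adjusted p = 0.136).

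Skeletal muscle markers were highest in FO 1 and GF 3. Of 27 markers, 26 were in the table, and they summed to 80.8, 99.1, 527 and 188 CPM in the GF libraries, 1147, 37.6, 49.9 and 42.4 CPM in FO, and 106 and 113 CPM in control libraries. FO 1 had all 26 above 0, with ACTA1 at 228 CPM and CKM at 59.7 CPM, while GF 3 had ACTA1 at 72.5 CPM and CKM at 3.11 CPM, and both genes were at 0 in GF 4. Both control libraries had more marker RNA than FO 2, FO 3 and FO 4 and less PGAM2. GF 4 had the second highest marker sum in GF and the lowest PFKM and ENO3 of that group. Its sum came from few markers, since 17 of the 26 were at 0 in GF 4, against 4 in GF 3. With neither FO 1 nor GF 3, PGAM2 was at 3.84 in GF against control (adjusted p = 0.00955) and at 2.82 in FO against control (adjusted p = 0.0369). Here too the gene passed the filter through the grafts, so these p-values add no support to the counts. The part of muscle RNA in the values of PFKM, PGAM2 and ENO3 was not tested.

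**Figure D4:**
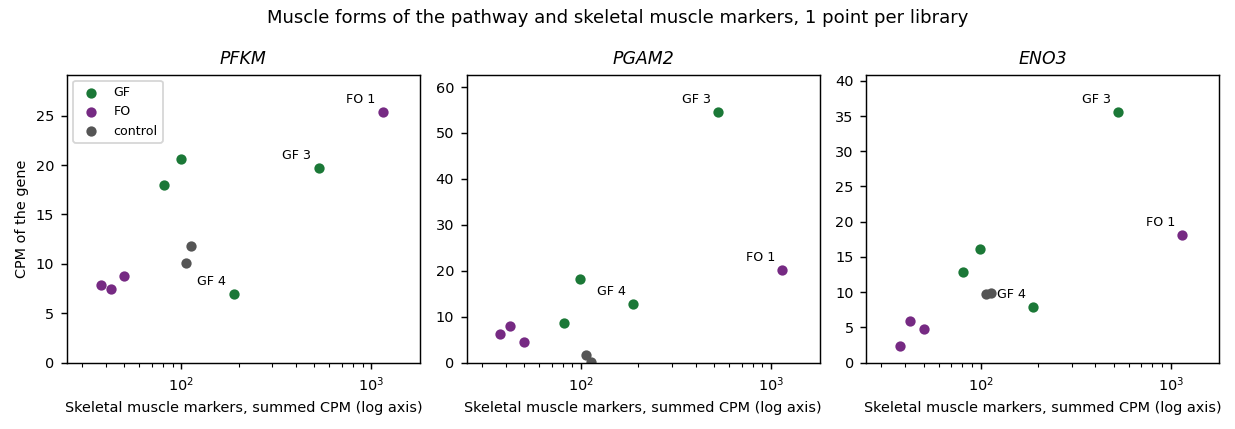
CPM of PFKM, PGAM2 and ENO3 against the summed CPM of 26 skeletal muscle markers (log axis), with 1 point per library coloured by group. FO 1 (1147 CPM of markers) and GF 3 (527 CPM) lie far to the right, and FO 1 is the highest FO library for all 3 genes while GF 3 is the highest GF library for PGAM2 and ENO3.

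Enolase makes phosphoenolpyruvate, and most of its counts were ENO1. ENO1 was at 803, 711, 1054 and 1309 CPM in the GF libraries, 338, 581, 786 and 389 CPM in FO, and 947 and 1003 CPM in control libraries. GF 2 fell within the range of FO and the other GF libraries were above it, for a log2 fold change of 0.90 ± 0.30 in GF against FO (adjusted p = 0.0414). That call ended when GF 3, GF 4, FO 1, FO 2 or FO 4 was left out, at an adjusted p of 0.0743 to 0.120. ENO1 was at -0.90 ± 0.33 in FO against control (adjusted p = 0.0763, and 0.0304 without FO 3) and at -0.01 ± 0.34 in GF against control. With each library left out in turn, the FO value of ENO1 ranged over -1.16 to -0.74. ENO3, the muscle form, was at 12.9, 16.1, 35.6 and 7.95 CPM in the GF libraries, 18.1, 2.39, 4.82 and 5.93 CPM in FO, and 9.73 and 9.82 CPM in control libraries, and ENO2, the form of neurons, was at 2.71 to 15.9 CPM over all libraries. Neither was called in any comparison of all libraries. ENO3 was at 1.23 ± 0.63 in GF against FO (adjusted p = 0.158). Without FO 1 alone it was at 2.05 and called (adjusted p = 0.0382), without GF 3 alone it was at 0.66 (adjusted p = 0.448), and with neither it was at 1.48 (adjusted p = 0.0829).

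PKM makes pyruvate and was at 646, 667, 1016 and 1306 CPM in the GF libraries, 546, 637, 913 and 1101 CPM in FO, and 449.8 and 489 CPM in control libraries. All grafts were above control, and the log2 fold change was 0.95 ± 0.35 in GF (adjusted p = 0.0632) and 0.77 ± 0.35 in FO (adjusted p = 0.150), so PKM was not called, although the GF call was made without GF 1 (adjusted p = 0.0360) and without GF 2 (adjusted p = 0.0485). With each library left out in turn, the GF value of PKM ranged over 0.73 to 1.07. The counts do not tell the M1 and M2 splice forms of PKM apart. With total counts in place of TMM scaling, PKM and SLC2A1 were called higher in GF than in control (adjusted p = 0.0483 and 0.0400), and LDHA and PGAM1 were no longer called, so that the split of calls was 7 higher and 4 lower instead of 5 and 6.

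Lactate dehydrogenase closes the pathway, and LDHA, the form that favours lactate, was lower in GF than in control testis. LDHA was at 32.1, 26.2, 38.0 and 9.33 CPM in the GF libraries, 49.3, 22, 27.1 and 30.9 CPM in FO, and 56.4 and 74.8 CPM in control libraries. All grafts were below control, with a log2 fold change of -1.31 ± 0.44 in GF (adjusted p = 0.0428) and -1.02 ± 0.44 in FO (adjusted p = 0.126). The GF call ended without GF 2, without control 1 and without control 2.

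The row named LDHB, the form of heart that favours pyruvate, held 1 to 5 counts in every library and was never tested. A second row, named LDHB_1 and not among the 33, was at 153, 181, 57.7 and 78.1 CPM in the GF libraries, 224, 189, 218 and 259 CPM in FO, and 135 and 154 CPM in control libraries. RefSeq lists 2 LDHB loci on Sscrofa11.1, one at chr2:12988754-12990033 over 1280 bases and one at chr5:51810932-51831218, and the table does not say which row stands for which. LDHB_1 was lower in all GF libraries than in any FO library (-0.92 ± 0.33, adjusted p = 0.0499), and this call ended without GF 3, without GF 4 and without each FO library. LDHA made up 17.4, 12.6, 39.0 and 10.5% of the counts of the 3 rows in GF, 18.0, 10.4, 11.0 and 10.6% in FO, and 29.5 and 32.6% in control libraries.

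In gluconeogenesis, FBP2, the muscle form of fructose 1,6-bisphosphatase, was nearly absent from grafts. It was at 0.429, 0.361, 0 and 1.73 CPM in GF, from 2, 2, 0 and 5 counts, and at 0 in all FO libraries, against 114 and 104 CPM in control libraries, from 689 and 687 counts. The log2 fold change in GF against control was -7.49 ± 0.62 (adjusted p = 4.07e-05), and -8.37 without GF 4. Against 3 counts over the FO group, FBP2 was at least 639-fold lower in FO than in control (adjusted p = 1.88e-05). It had enough counts for the test only through control, so these p-values and calls add no support to the counts. With each library left out in turn, FBP2 was at least 467-fold lower in FO. Its neighbour FBP1, the liver form, lies at chr10:27588609-27622225 on Sscrofa11.1, beside FBP2 at chr10:27631833-27661704. FBP1 was at 4.93, 4.69, 2.42 and 0 CPM in GF, 6.97 to 9.65 CPM in FO and 5.61 to 10.9 CPM in control libraries, and was not called (-1.39 ± 0.71 in GF against FO, adjusted p = 0.155).

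PCK2, the mitochondrial phosphoenolpyruvate carboxykinase, had 6, 7, 0 and 0 counts in GF, 19, 9, 23 and 16 counts in FO, and 37 and 78 counts in control libraries. It fell in GF against control (-3.58 ± 0.90, adjusted p = 0.0115), a call that ended without control 2, and was at -1.21 ± 0.84 in FO against control (adjusted p = 0.355). PCK1, its cytosolic partner, had 10 counts in GF 3, 1 count in control 2 and 0 elsewhere. Summed markers of Leydig, red and myeloid cells were lower in both kinds of graft than in control. Their part in the differences from control given above was not tested. Of 16 myeloid markers the sum was 37.0 to 67.9 CPM in GF, 106 to 365 CPM in FO and 658 to 729 CPM in control libraries.

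Within groups, the genes varied more in GF than in FO. The median coefficient of variation over libraries was 38.9% in GF and 23.1% in FO for the 25 genes, and it was larger in GF for 20 of them, or 80%. Over all genes tested the medians were 42.7% in GF and 21.7% in FO, and 80.8% were larger in GF, so the members were like other genes in this. ALDOA, ENO1, HK1, GPI, PKM and PFKL were higher in GF 3 and GF 4 than in GF 1 and GF 2, while PGK1, PGAM1, BPGM and SLC16A1 were lower there. Summed over the 33 genes, levels were 3579, 3291, 4355 and 5605 CPM in the GF libraries, 2426, 2795, 3565 and 3334 CPM in FO, and 4370 and 4907 CPM in control libraries.

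Genes around the pathway were counted by list in the same fits. Over all genes tested, 30.5% were called in GF against FO, 25.8% in GF against control and 18.7% in FO against control. In GF against FO, calls were 50% of other carriers, 40.7% of regulators, 37.5% of liver and other forms and 33.3% of pentose phosphate genes. They were 27.3% of hypoxia-induced, 26.3% of glycogen and 23.1% of tricarboxylic acid cycle and shuttle genes. No list was tested against the share of all genes. The 5 germ cell isoenzymes in the table summed to 60.2 to 217.7 CPM in GF, 0 to 0.653 CPM in FO and 2.72 to 3.13 CPM in control libraries. Those tested passed the filter on low counts through their GF counts, so how many of them were called is not given as a result. PGK2, the germ cell phosphoglycerate kinase, was at 11, 33.9, 34.5 and 14.5 CPM in GF, with 1 count over all FO libraries, and was 422-fold higher in GF (95% counting interval 75.3 to 16714), or at least 103-fold higher without FO 3. LDHC, the sperm lactate dehydrogenase, was at 34.1, 89.4, 25.5 and 16.6 CPM in GF libraries and 0 to 0.653 CPM in FO (log2 fold change 7.35 ± 0.82, adjusted p = 1.67e-04), with values of 6.64 without GF 2 and 8.62 without FO 2. With 776 counts in GF and 4 in FO, LDHC entered the test through GF, so its p adds no support to the counts. GK2, a glycerol kinase of testis, was at 23.5 to 83 CPM in GF and 0 in FO, at least 334-fold higher. The germ cell markers moved with these, as given above.

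Among other glucose and monocarboxylate carriers, 6 of 14 rose and 1 fell in GF against FO, 6 of 18 rose in GF against control, and 1 of 18 rose in FO against control. SLC2A8, an intracellular glucose carrier abundant in testis, was at 27.0, 64.5, 143 and 40.8 CPM in GF libraries, against 3.92 to 8.81 CPM in FO (3.40 ± 0.52, adjusted p = 8.63e-04, and 2.74 without GF 3). EMB, a partner protein of lactate carriers, was at 49.4 to 85.0 CPM in GF, against 11.2 to 30.7 CPM in FO (1.71 ± 0.32, adjusted p = 0.00252). SLC5A2, a sodium-glucose carrier known from kidney, was at 1.92 ± 0.42 (adjusted p = 0.00505). SLC2A5, a fructose carrier, was 151-fold higher in GF (95% counting interval 26.7 to 6022, from 137 and 1 counts, so that it too passed the filter through GF), or at least 37.3-fold higher without FO 2.

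Of the liver and other forms of the pathway, 2 of 8 rose and 1 fell in GF against FO, 2 of 9 rose and 1 fell in GF against control, and 2 of 9 rose in FO against control. SLC37A4, the glucose 6-phosphate carrier of the endoplasmic reticulum, rose in GF against FO (0.93 ± 0.23, adjusted p = 0.00993), as did the phosphatase gene G6PC3 (1.23 ± 0.35, adjusted p = 0.0204), whose call ended without FO 1 or FO 2. GALM, which interconverts the anomers of hexose sugars, fell (-1.24 ± 0.26, adjusted p = 0.00423).

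Of the glycogen genes, 4 of 19 rose and 1 fell in GF against FO, 4 of 20 rose and 2 fell in GF against control, and 1 of 20 rose and 2 fell in FO against control. PHKG2, a catalytic subunit of phosphorylase kinase, was at 25.5, 72.8, 181 and 93.0 CPM in GF libraries, against 3.62 to 7.97 CPM in FO (3.92 ± 0.54, adjusted p = 5.02e-04). The glycogen phosphorylases PYGB (1.33 ± 0.30, adjusted p = 0.00611) and PYGL (1.39 ± 0.33, adjusted p = 0.00795) also rose, as did PGM2L1 (1.55 ± 0.44, adjusted p = 0.0192), whose call ended without FO 1, FO 2 or FO 3. In the pentose phosphate pathway, 2 of 9 rose and 1 fell in GF against FO, 2 of 9 fell in GF against control and 4 of 9 fell in FO against control. TKTL1, a transketolase relative, was at 75.2, 73.8, 32.1 and 3.8 CPM in GF libraries, against 0 to 3.48 CPM in FO (4.35 ± 0.86, adjusted p = 0.00316). TKTL1 passed the filter on low counts through GF, so its p adds no support to the counts.

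Of 18 genes of pyruvate entry into mitochondria, none was called between GF and FO by edgeR, 5 had an unadjusted p under 0.05, and DESeq2 called 3. Against control, 1 of 18 rose and 6 fell in GF, and 1 rose and 3 fell in FO. The gene that rose in both was PDK3, a kinase that shuts pyruvate dehydrogenase, named after its values were seen, at 181 to 245 CPM in GF libraries and 138 to 164 CPM in FO, against 38.7 and 41.9 CPM in control libraries (2.40 ± 0.26 in GF, adjusted p = 5.47e-05, and 1.90 ± 0.25 in FO, adjusted p = 2.13e-04). Of the tricarboxylic acid cycle and shuttle genes, 4 of 26 rose and 2 fell in GF against FO, and 1 of 27 rose and 7 fell against control in each kind of graft. GPD2, the mitochondrial glycerol phosphate dehydrogenase, was at 12.4 to 24.2 CPM in GF, against 63.3 to 92.3 CPM in FO (-2.02 ± 0.27, adjusted p = 3.99e-04), and its cytosolic partner GPD1 was at 1.27 ± 0.30 (adjusted p = 0.0078).

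Of 27 regulators of glucose use, 5 rose and 6 fell in GF against FO, and 3 of 29 rose and 3 fell in GF against control, while 4 rose and 3 fell in FO against control. TXNIP, which restrains glucose uptake, was at 117 to 259.8 CPM in GF, against 531 to 774 CPM in FO (-1.99 ± 0.28, adjusted p = 5.33e-04). EPAS1, the hypoxia-inducible factor HIF-2α, was at 12.3 to 32.8 CPM in GF, against 0.836 to 6.14 CPM in FO (2.69 ± 0.61, adjusted p = 0.0065, and 3.45 without FO 4). EPAS1 too passed the filter through GF, so its p adds no support to the counts. Of 22 hypoxia-induced genes outside glycolysis, 2 rose and 4 fell in GF against FO, and 2 of 24 rose and 5 fell against control in each kind of graft. NDRG1, a stress-induced gene, was lower in GF than in FO (-1.84 ± 0.37, adjusted p = 0.00326), and KDM4B, a histone demethylase, was higher (1.04 ± 0.27, adjusted p = 0.0121).

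**Figure D5:**
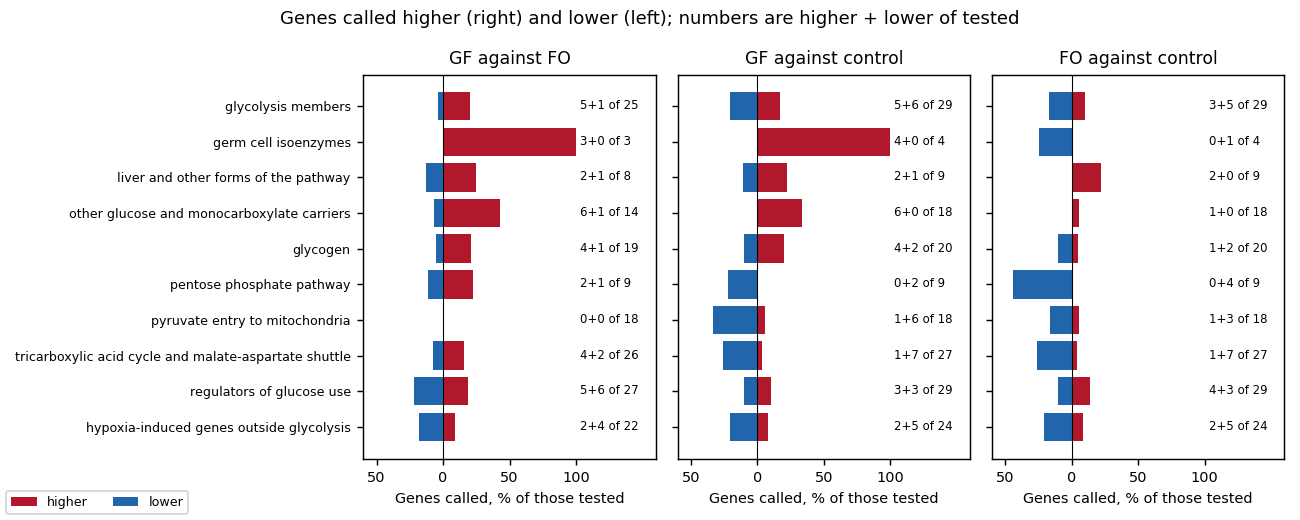
Share of the tested genes of each list (percent) called higher (red, to the right) and lower (blue, to the left) in the 3 comparisons, with the counts printed beside the bars. Over all genes tested, 30.5% were called in GF against FO, 25.8% in GF against control and 18.7% in FO against control. The bar of the germ cell isoenzymes in GF is fixed by the filter on low counts, which they passed through their GF counts, and no gene of pyruvate entry was called between GF and FO.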

How the data were processed

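PolyA RNA was isolated with Trizol and made into libraries with the QuantSeq 3′ mRNA-Seq kit (Lexogen), per the labels. The authors deposited unscaled whole-number counts for each gene name, and all 10 columns were used (0 columns were left out). The build Sscrofa11.1 and the tool DESeq2 1.42.0 are listed, without their roles, per the submitters' processing notes. Which aligner and counter were used, and whether strand was read, is not given in the sources used here. Overlapping genes may therefore share reads. Column names gave each library's group and number, and F was read as FO. Groups were taken from titles, because the cell type and growth fields are alike in control and graft samples. A further 26 rows with a date for a name were kept and never named.

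Counts were filtered with filterByExpr (minimum count 10), scaled with TMM and tested over the whole table with edgeR 4.0.16 (robust quasi-likelihood F test, R 4.3.3, limma 3.58.1), calling a Benjamini-Hochberg adjusted p under 0.05. GF against FO used the 8 graft libraries, and comparisons with control used all 10 in a single fit. The fits were tested on simulated data. Members, lists and tests were chosen with earlier results of these data known. Values in every library are given for members called in a comparison at 10 CPM or more in a group, and up to 4 called genes with the lowest p in GF against FO are named per list, except 1 that is not reported here. Some members outside this rule are also given by library. For a gene at 0 in a group, the fold is a bound set by 3 counts in the whole group. For 1 to 3 counts it is a ratio with an exact binomial 95% interval. Alternatives were DESeq2, other scalings, no filter, a replicate block, a fold threshold of 1.5, a changed set of fitted libraries, non-robust estimation, scaling without mitochondrial and haemoglobin genes, and the removal of libraries. Promoter motifs and protein identities were not analysed here.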

Additional observations from a re-analysis of the deposited data

Results flagged for a closer look

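In each of 58 graft groups of 4 libraries, the gap of the lowest or highest library to its nearest neighbour was set against the whole range of the group, and 3 exceeded the 95% critical value of Dixon's test. Chance gives about 1 such group in 20. PFKM in FO 1, at 25.4 CPM against 7.42 to 8.81 CPM in the other FO libraries, had a gap of 0.922 of the range. ENO2 in FO 1, at 11 CPM against 3.70 to 4.87 CPM, had a gap of 0.842. FO 1 also held the highest sum of skeletal muscle markers, 1147 CPM, and its part in these values was not tested. PGK1 in FO 4, at 64.6 CPM against 83.9 to 84.5 CPM, had a gap of 0.972.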

How the results depend on the processing

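Of the 6 genes called in GF against FO, 11 in GF against control and 8 in FO against control, 5, 3 and 3 stayed called with each library left out in turn, and the counts then ranged over 5 to 6, 3 to 14 and 3 to 7. A fold threshold of 1.5 left 3, 7 and 5, and over all genes 2456, 2658 and 1833. With only the 2 compared groups in the fit, 6 genes were called in GF against control and 15 in FO against control (2201 and 6600 over all genes). Without control 1 and without control 2, all-gene calls were 1395 and 1141 in GF against control, and 977 and 796 in FO against control. Without FO 1 and GF 3, GF against FO had 2312 calls over all genes. ALDOA in GF against control, not called, changed sign to -0.63 with the replicate block, -0.054 without FO 1 and GF 3 and -0.92 without GF 3 and GF 4 (called), and ranged over -0.29 to 0.32 with single libraries left out. Causes were not tested. Deviations from the group mean correlated between same-numbered GF and FO libraries at r = 0.0725, 0.251, 0.0932 and 0.121. Libraries of different numbers were not compared, so these values cannot tell whether the numbers pair them. The main fits did not pair them, and the replicate block gave 6, 9 and 9 calls. DESeq2 gave 6, 13 and 8. Total-count scaling moved the median log2 fold change of all genes in GF against FO to 0.13 and the share of calls that were higher to 69.1%, against 57.5%. Depth limits HK2, HK3, LDHB, PCK1, PCK2 and SLC16A3, which had few counts. Promoter motif shares and protein identities were not run.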
